A study of Mus musculus with 4 samples.

Results

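The 10 genes described here, Nnt, Sod2, Prdx3, Prdx5, Gpx1, Gpx4, Txn2, Txnrd2, Gsr and Glrx2, make the enzymes that remove superoxide and peroxides in mitochondria and that keep the thiols and the NADPH needed for it. They were chosen by symbol and stand on 11 of the 55382 gene rows of each deposited table, because Nnt stands on 2 rows. Hearts of mice killed 15 days after birth were profiled in 4 libraries. The WT group holds 2 libraries, named FF in the library names and NAT10-FF in the design text. The KO group holds 2 libraries from NAT10-CKO mice, which lack NAT10, an RNA cytidine acetyltransferase, conditionally. The cells in which the deletion takes place, the Cre driver, the strain of the mice and the number of hearts per library were not given here, and all libraries carry the same batch label. Each library gives a level of ribosome footprints per gene in FPKM, which is scaled by gene length and by library, and a translation efficiency (TE), the footprint level over an RNA level. Footprint level divided by TE gives that RNA level, called the implied RNA level here.

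As background, superoxide leaks from the respiratory chain and is turned into hydrogen peroxide by the manganese superoxide dismutase Sod2. Peroxiredoxins (Prdx3, Prdx5) and glutathione peroxidases (Gpx1, Gpx4) reduce the peroxides. Thioredoxin 2 with its reductase Txnrd2, and glutathione with glutathione reductase (Gsr) and glutaredoxin 2 (Glrx2), restore the peroxidases and protein thiols. The electrons come from NADPH, which the transhydrogenase Nnt of the inner membrane makes from NADH with the proton gradient. Heart muscle is rich in mitochondria and depends on this system. Gpx1, Gpx4 and Txnrd2 are selenoproteins: their selenocysteine is read from a UGA codon that would otherwise end translation.

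The summed FPKM of the libraries ran from 7.04e+06 to 8.73e+06, and their depth in reads is unknown. The targeted gene, Nat10, read 77.3 and 73.9 FPKM of footprints in the WT group and 40.01 and 52.1 in the KO group, a log2 difference of -0.71 that did not pass (limma adjusted p = 0.295). Its implied RNA read 7.02 and 8.34 FPKM against 5.62 and 6.69, a difference of -0.32 that did not pass either (limma adjusted p = 0.424). Rows with at least 1 FPKM in 2 libraries were tested (15031 rows, the 11 member rows among them), and the median log2 difference over them, KO minus WT, was 0.36. A gene near 0 therefore reads below most genes. Rows with a TE above 0 in every library (12529 rows, all 11 member rows among them) were tested for RNA and TE. The labels call the cell type cardiomyocytes. All 8 cardiomyocyte markers examined were among the tested rows, with summed footprint levels of 292089 and 344981 FPKM in the WT group and 179913 and 191649 in the KO group. None was at 0 in all libraries, and 7 of 8 read lower in both KO libraries than in both WT libraries (12.1% of all tested rows). The 8 fibroblast markers summed to 24549 and 19685 FPKM in the WT group and 52319 and 67695 in the KO group. All 8 of 8 read higher in both KO libraries (39.5% of all tested rows). The 6 endothelial markers summed to 1682 and 1462 in the WT group and 1945 and 2795 in the KO group, and the 6 markers of smooth muscle and pericytes to 4149 and 4500 against 4206 and 3504. Among the marker rows examined here, those of macrophages and erythroid cells included, only Tagln passed for footprints (higher in the KO group, limma adjusted p = 0.0407). That call was lost with a pseudocount of 0.1 (0.0773), without the filter (0.164), with median-ratio scaling of the libraries (0.0684), without the trend (0.199) and with any 1 library left out (0.299 to 0.666). In the implied RNA level 4 markers rose: Postn and Tcf21 of fibroblasts, C1qa of macrophages and Tagln (limma adjusted p = 0.0192, 0.0291, 0.0463 and 0.0443). Not all markers went this way. In RNA 5 of 8 fibroblast markers lay above WT in both KO libraries and 1, Pdgfra, below. Of 7 macrophage markers 5 lay above and 1, Cd163, below. Of 6 for smooth muscle and pericytes 2 lay above and 2, Acta2 and Myh11, below. Over all rows 44.2% lay above and 18.6% below. Acta2 was also lower in footprints, at 3365 and 3959 FPKM in the WT group and 2721 and 1816 in the KO group. In whole tissue, fewer cells of a type and less RNA per cell cannot be told apart. The part of these shifts in the values below was not tested.

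Nnt (RefSeq: chromosome 13, 119335527 to 119409257, GRCm38) was the member whose rows differed most. Its main footprint row, ENSMUSG00000116207, read 1043 and 1053 FPKM in the WT group and 781 and 1028 in the KO group. The KO libraries lay below the WT libraries, but 1 of them only slightly, and the log2 difference of -0.23 (SE 0.23) was not called (limma adjusted p = 0.631). The other row, ENSMUSG00000025453, read 21.9 and 50.5 FPKM in the WT group and 0.011 and 0.021 in the KO group. It fell 33.8-fold on the log2(FPKM + 1) scale (difference of -5.08 in log2 units with an SE of 0.60; limma adjusted p = 0.0468). In KO replicate 1 only 27 of the 16442 rows above 0 were lower, and in KO replicate 2 only 33 of 16542, against 9556 of 16900 in WT replicate 1 and 12060 of 16425 in WT replicate 2. Both KO libraries were thus near the bottom of the scale and both WT libraries in its middle or upper part.

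This row met the filter of at least 1 FPKM in 2 libraries only through the WT group, so it could enter the test only as a row that is lower in the KO group. Without the filter its adjusted p in limma was 0.216 and it was not called. The call, 1 of 11 member rows where limma called 0.379% of all tested rows (0.253% higher and 0.126% lower), is therefore given as a description. With any 1 library left out it was not called either: the adjusted p was 0.391 with WT replicate 1 removed and 0.666 with WT replicate 2 removed. It was 0.299 with KO replicate 1 removed, 0.443 with KO replicate 2 removed, and no row of the table passed in those fits. Over the other alternatives the adjusted p ran from 0.0089 to 0.216.

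The RNA behind this row did not vanish with its footprints. The implied RNA level of ENSMUSG00000025453 was 56.7 and 97.03 FPKM in the WT group and 27.2 and 46.7 in the KO group, a log2 difference of -1.06 (SE 0.36) that did not pass (limma adjusted p = 0.119). It passed at -1.45 with WT replicate 1 removed (adjusted p = 0.0337) and at -1.45 with KO replicate 2 removed (0.0199). It was -0.67 and did not pass with WT replicate 2 removed (0.427), and likewise with KO replicate 1 removed (-0.67, 0.247). Both KO values were under both WT values, at 0.480 times the WT mean, while the footprints stood at 4.41e-04 times the WT mean. Its TE was 0.385 and 0.520 in the WT group and 3.97e-04 and 4.53e-04 in the KO group. TE was tested only on rows that met the footprint filter, so this row entered that test, too, only through the WT group. Its TE difference and its place among the rows are therefore a description and not support. The log2 TE difference of -10.04 (SE 0.76) had the lowest p of the 12529 rows tested for TE, and did not pass after adjustment over them (limma adjusted p = 0.0686; range 1.0e-15 to 0.609 over the alternatives).

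Footprints and RNA were divided differently between the Nnt rows. ENSMUSG00000025453 held 2.05% and 4.58% of the summed footprint level in the WT group and 0.0014% and 0.0021% in the KO group. It held 64.9% and 62.9% of the summed implied RNA level in the WT group and 47.5% and 59.3% in the KO group. The TE of the other row, ENSMUSG00000116207, was 34.1 and 18.4 in the WT group and 26.0 and 32.1 in the KO group, far above that of its partner in every library. Its RNA level, as implied by TE, was 30.6 and 57.2 FPKM in the WT group and 30.01 and 32.0 in the KO group, with overlapping groups. How reads were shared between the rows, and how both Ensembl genes relate, was not given here. It is known that the C57BL/6J strain carries a deletion of several exons in Nnt that other strains lack. The strain was not given here, so whether the libraries share 1 Nnt allele was not tested.

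**Figure D1:**
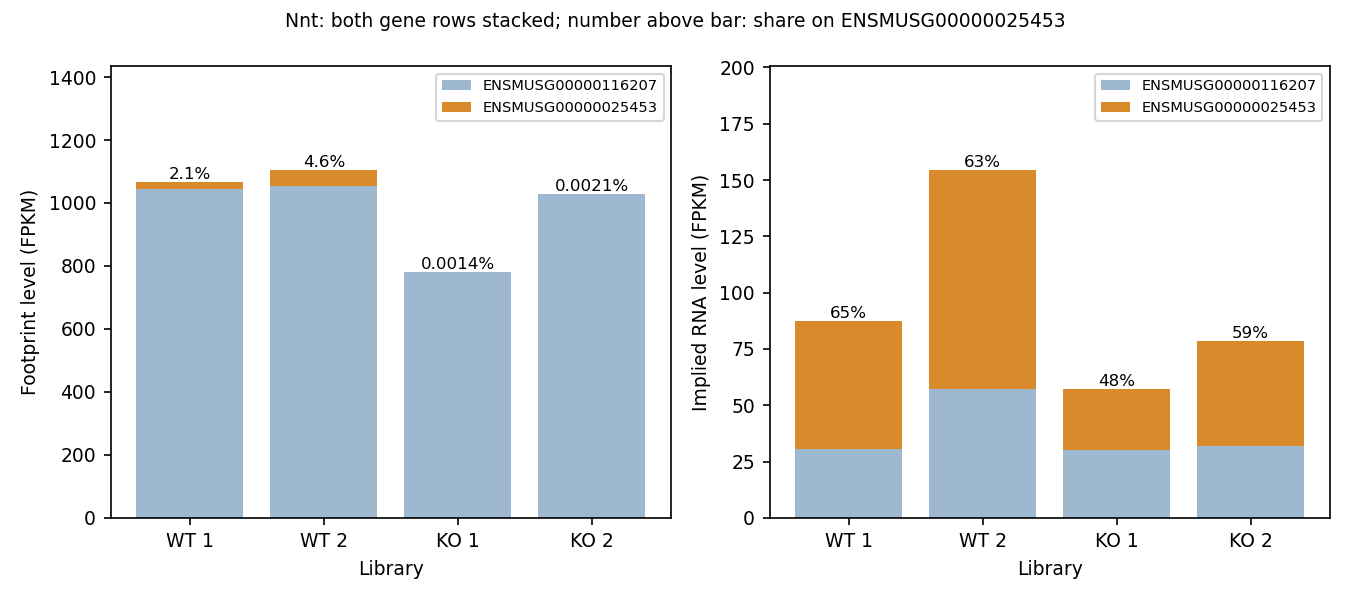
Footprint level (left, FPKM) and implied RNA level (right, FPKM) of the 2 Nnt gene rows, stacked, in each of the 4 libraries; the number above a bar is the share held by ENSMUSG00000025453. That row holds 2.05% and 4.58% of the footprints in the WT group and almost none in the KO group, but 47.5% to 64.9% of the RNA in all 4 libraries.

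Summed over both rows, Nnt read 1065 and 1103 FPKM of footprints in the WT group and 781 and 1028 in the KO group, or 1084 ± 26.8 against 904 ± 175 (SD, n = 2). In log2 units they differed by -0.28 (SE 0.23, limma adjusted p = 0.557), and leaving out KO replicate 2 made this -0.47 and leaving out KO replicate 1 made it -0.077. The summed implied RNA level was 87.3 and 154 FPKM in the WT group and 57.2 and 78.6 in the KO group, with every KO library below every WT library (difference of -0.79 in log2 units with an SE of 0.32; limma adjusted p = 0.168). With 1 library left out this difference ran from -1.20 (WT replicate 1 removed) to -0.38 (WT replicate 2 removed). The TE of the sums was 12.2 and 7.15 in the WT group and 13.7 and 13.1 in the KO group (difference of 0.52 in log2 units with an SE of 0.46; limma adjusted p = 0.906). For Nnt as a whole, lower RNA therefore stood beside a footprint level 0.834 times that of WT, and neither difference passed. Row lengths were not used here, so the sum adds values that are each scaled by their own row's length.

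Sod2 (chromosome 17, 13007839 to 13018119) had the highest footprint level of the 10 genes in every library. It read 3133 and 3808 FPKM in the WT group and 2221 and 2434 in the KO group, or 3471 ± 477 against 2328 ± 150.3 (SD, n = 2). The KO values were both under the WT values. The log2 difference of -0.57 (SE 0.23) did not pass over all rows (limma adjusted p = 0.280; unadjusted p = 0.0457). Its implied RNA level did not separate the groups, at 231 and 228 FPKM in the WT group and 275 and 224 in the KO group (difference of 0.11 in log2 units with an SE of 0.22; limma adjusted p = 0.765). The lower footprints of Sod2 were thus seen in TE, which was 13.5 and 16.7 in the WT group and 8.07 and 10.9 in the KO group. The log2 TE difference of -0.68 (SE 0.44) did not pass either (limma adjusted p = 0.861).

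Prdx3 (chromosome 19, 60864066 to 60874538), the peroxiredoxin found only in mitochondria, read 938 and 967 FPKM of footprints in the WT group and 693 and 870 in the KO group. Prdx5 (chromosome 19, 6906697 to 6910106), which also works in peroxisomes and cytosol, read 1030.2 and 1130.4 in the WT group and 772 and 795 in the KO group. In both genes the KO libraries lay below the WT libraries, by 0.29 (SE 0.22) and 0.46 (SE 0.20) on the log2 scale, and neither passed (limma adjusted p = 0.510 and 0.311). The difference of Prdx3 was -0.13 with KO replicate 1 removed and -0.46 with KO replicate 2 removed. The implied RNA level of Prdx3 was 132 and 132 FPKM in the WT group and 113 and 101 in the KO group, and that of Prdx5 was 166 and 186 in the WT group and 172 and 127 in the KO group. Only that of Prdx3 separated the groups (difference of -0.31 in log2 units with an SE of 0.20; limma adjusted p = 0.340). The TE groups overlapped for both: Prdx3 had 7.08 and 7.32 in the WT group and 6.14 and 8.61 in the KO group, and Prdx5 had 6.20 and 6.07 in the WT group and 4.48 and 6.25 in the KO group. The footprint ratio of Prdx3 to Prdx5 was 0.910 and 0.855 in the WT group and 0.897 and 1.09 in the KO group, so the balance of these enzymes overlapped between groups as well.

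The glutathione peroxidases read the other way. Gpx1 (chromosome 9, 108339080 to 108340342), a selenoprotein of cytosol and mitochondria that reduces hydrogen peroxide, read 166 and 160.2 FPKM of footprints in the WT group and 293 and 326 in the KO group. That is 163 ± 4.2 against 310 ± 23.4 (SD, n = 2), and the gap between groups was several times the spread within either. The log2 difference of 0.92 (SE 0.22, 1.89-fold) did not pass over all rows (limma adjusted p = 0.174; unadjusted p = 0.0064). The implied RNA level of Gpx1 was 59.04 and 64.5 FPKM in the WT group and 184 and 103 in the KO group, a log2 difference of 1.15 (SE 0.30, limma adjusted p = 0.0727). Both KO libraries were higher in RNA too, but they differed from each other much more than the WT libraries did: the log2 difference was 1.57 without KO replicate 2, where it passed (limma adjusted p = 0.0035), and 0.73 without KO replicate 1, where it did not (adjusted p = 0.0578; range over all alternatives 9.73e-04 to 0.233). The TE of Gpx1 overlapped between groups, at 2.82 and 2.48 in the WT group and 1.60 and 3.18 in the KO group.

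Gpx4 (chromosome 10, 80047166 to 80056439), the selenoprotein that reduces lipid hydroperoxides in membranes, read 416 and 647 FPKM of footprints in the WT group and 694 and 760 in the KO group. The KO libraries were the higher ones, but WT replicate 2 came close to them (difference of 0.48 in log2 units with an SE of 0.28; limma adjusted p = 0.401), and without WT replicate 1 the difference was 0.17. Implied RNA of Gpx4 was 226 and 224 FPKM in the WT group and 443 and 259 in the KO group (difference of 0.59 in log2 units with an SE of 0.30; limma adjusted p = 0.242). Here too KO replicate 1 stood far above the rest: without KO replicate 2 the difference was 0.98 (adjusted p = 0.010) and without KO replicate 1 it was 0.20 (adjusted p = 0.501; range over all alternatives 0.010 to 0.756). The TE of Gpx4 overlapped, at 1.84 and 2.88 in the WT group and 1.57 and 2.94 in the KO group. Beside these higher values stood the markers of other cells of the heart. The 7 macrophage markers summed to 425 and 682 FPKM of footprints in the WT group and 619 and 1461 in the KO group, and the 6 erythroid markers to 1036 and 832 in the WT group and 1233 and 619 in the KO group. Both sums overlapped between the groups. In implied RNA the macrophage markers summed to 72.2 and 73.03 FPKM in the WT group and 148 and 119 in the KO group, with every KO library above every WT library. The erythroid markers with an RNA level (5 rows) summed to 607 and 922 in the WT group and 1248 and 628 in the KO group, highest in KO replicate 1, and the groups overlapped. Their part in the Gpx1 and Gpx4 values was not tested.

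**Figure D2:**
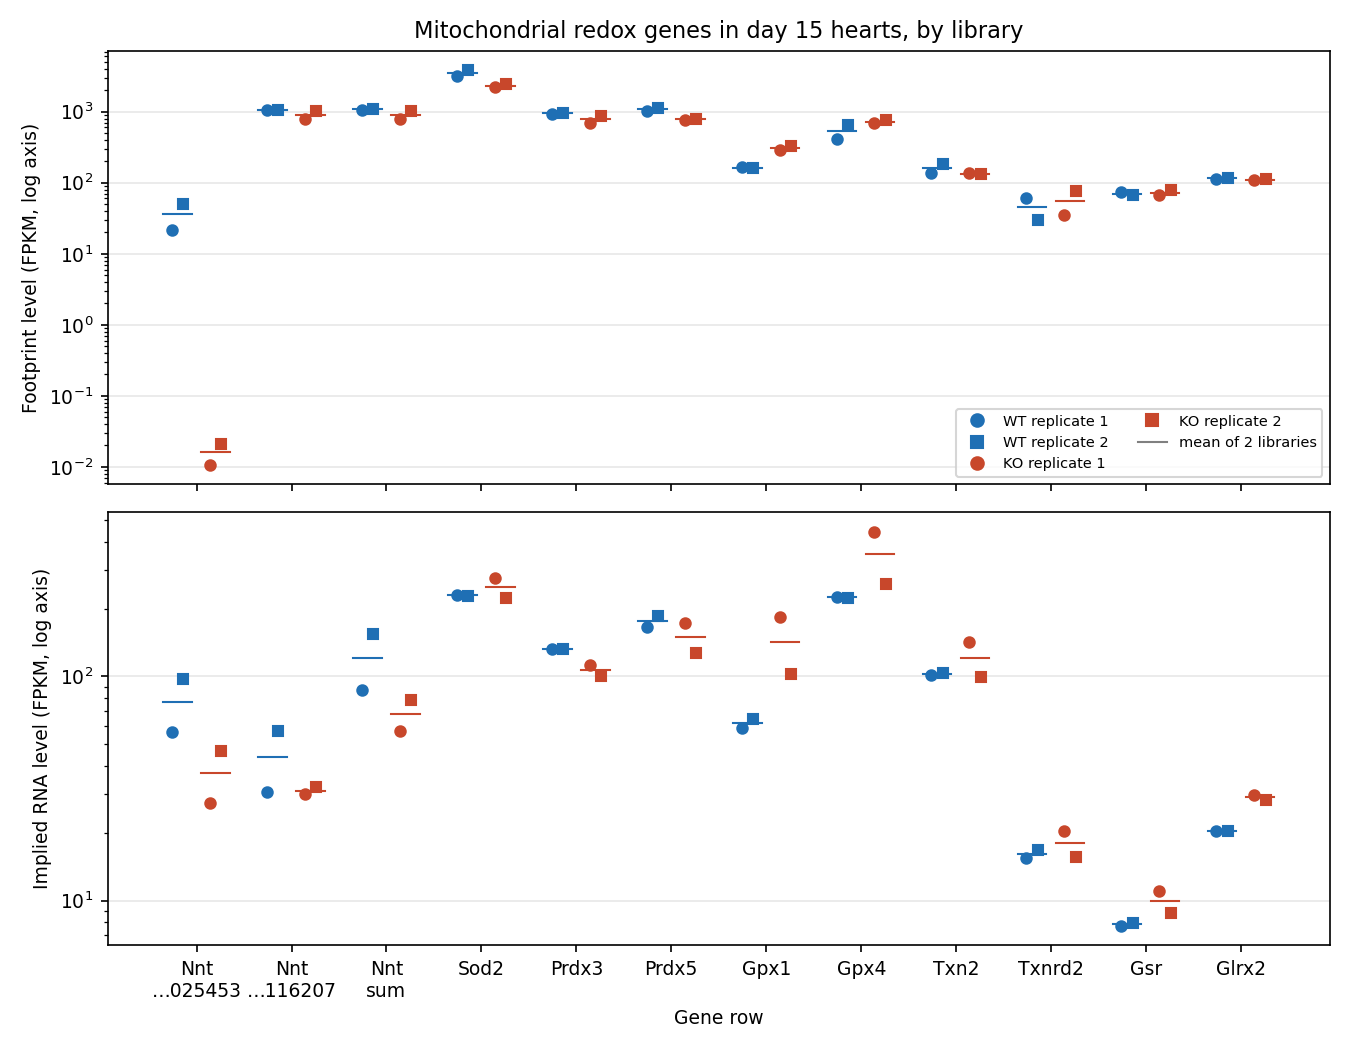
Footprint level (top) and implied RNA level (bottom), both in FPKM on log axes, of every member row and of the Nnt sum, with each library as a point and the mean of 2 libraries as a bar. ENSMUSG00000025453 of Nnt drops to 0.011 and 0.021 FPKM in the KO group in the top panel and stays at 27.2 and 46.7 in the bottom panel; Gpx1 is higher in both KO libraries in both panels.

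None of the members of thiol reduction, Txn2, Txnrd2, Gsr and Glrx2, passed the test in any measure. Txn2 (chromosome 15, 77915051 to 77928994), the mitochondrial thioredoxin that supplies electrons to Prdx3, read 138 and 184 FPKM of footprints in the WT group and 138 and 131 in the KO group (difference of -0.25 in log2 units with an SE of 0.26; limma adjusted p = 0.645). Its lower WT library was almost level with the higher KO library, and the difference was -0.041 with WT replicate 2 removed. Implied RNA of Txn2 was 102 and 104 FPKM in the WT group and 143 and 99.4 in the KO group, and its TE 1.36 and 1.78 in the WT group and 0.963 and 1.32 in the KO group. In TE both KO values were under both WT values (difference of -0.47 in log2 units with an SE of 0.57; limma adjusted p = 0.929).

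Txnrd2 (chromosome 16, 18426417 to 18479073), the selenoprotein that reduces thioredoxin 2 with NADPH, had the lowest mean footprint level after ENSMUSG00000025453 and uneven replicates. Its footprints read 61.4 and 30.4 FPKM in the WT group and 35.3 and 76.0 in the KO group, so the spread within each group was larger than the difference between their means (difference of 0.26 in log2 units with an SE of 0.52; limma adjusted p = 0.825). Its RNA level, as implied by TE, was even, at 15.5 and 16.8 FPKM in the WT group and 20.4 and 15.7 in the KO group. Its TE, 3.97 and 1.81 in the WT group and 1.73 and 4.83 in the KO group, carried the unevenness of the footprints.

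Gsr (chromosome 8, 33653238 to 33698162), which reduces oxidized glutathione in cytosol and mitochondria, read 73.7 and 66.9 FPKM of footprints in the WT group and 67.4 and 78.2 in the KO group (difference of 0.047 in log2 units with an SE of 0.28; limma adjusted p = 0.942). Implied RNA of Gsr was 7.74 and 7.96 FPKM in the WT group and 11.1 and 8.83 in the KO group, higher in both KO libraries (difference of 0.33 in log2 units with an SE of 0.24; limma adjusted p = 0.381). Glrx2 (chromosome 1, 143739224 to 143749678), a glutaredoxin that acts on glutathionylated proteins, had nearly level footprints in FPKM as deposited, with 113 and 116 FPKM in the WT group and 109 and 113 in the KO group (difference of -0.050 in log2 units with an SE of 0.24; limma adjusted p = 0.930). In implied RNA Glrx2 was clearly split, at 20.5 and 20.4 FPKM in the WT group and 29.7 and 28.0 in the KO group (difference of 0.50 in log2 units with an SE of 0.20; limma adjusted p = 0.158; unadjusted p = 0.0405). The TE of Glrx2 was lower in both KO libraries, at 5.54 and 5.70 in the WT group against 3.65 and 4.04 in the KO group (difference of -0.55 in log2 units with an SE of 0.43; limma adjusted p = 0.881).

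Counted over the members, 7 of 11 rows (5 genes besides both Nnt rows) had both KO libraries under the WT libraries in footprints, where 12.1% of all tested rows did. Of these, ENSMUSG00000025453 met the filter only through the WT group, so it could be counted only on this side. Txn2 and Glrx2 were separated only narrowly, with lowest WT values of 138.3 and 113.4 FPKM and highest KO values of 137.8 and 113.2. Of 22 general mitochondrial genes, described below, 14 lay below WT in the same way. Only 2 of 11, Gpx1 and Gpx4, had both KO libraries above, where 39.5% of all rows did. The median log2 footprint difference of the 11 rows was -0.23, beside 0.36 over all rows. Relative to that median, Gpx1 stood 0.56 and Gpx4 0.12 above, and the other 9 of 11 below it, as 50.0% of all rows are by construction. With median-ratio scaling of the libraries, which moved the median of all rows to 0.030, Txnrd2 and Gsr changed sign in footprints and the other 9 rows kept theirs. It gave 0.55 for Gpx1, 0.11 for Gpx4, -0.60 for ENSMUSG00000116207 and -0.65 for the Nnt sum. It gave -0.94 for Sod2, -0.83 for Prdx5, -0.67 for Prdx3, -0.62 for Txn2 and -0.42 for Glrx2, so these read further below WT than in FPKM as deposited. In the implied RNA level 4 of 11 rows (Glrx2, Gsr, Gpx1 and Gpx4) lay above in both KO libraries (44.2% of all rows) and 2 of 11, Prdx3 and ENSMUSG00000025453, lay below (18.6% of all rows). The median of the rows was 0.15, beside 0.22 over all rows, and Sod2, Txn2 and Txnrd2 changed sign with scaling. None of the 11 passed limma's test for RNA, where 5.73% of 12529 rows did (526 rows or 4.20% higher and 192 or 1.53% lower, or 327 and 309 with scaling). An unadjusted p under 0.05 was reached by 3 of 11 for RNA (28.3% of all rows) and by 3 of 11 for footprints (17.3%), ENSMUSG00000025453 among them in both. In RNA 7 of 11 lay below the median of all rows (50.0%), and in TE 10 of 11 (50.0%). This was not particular to the members: in TE 20 of 21 general mitochondrial genes lay below that median as well.

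In TE 0 of 11 member rows were called by limma, as were 0 of all 12529 rows (0%). An unadjusted p under 0.05 was reached by 1 of 11 member rows and by 6.06% of all rows. Txn2, Sod2, Glrx2 and ENSMUSG00000025453 had both KO libraries under the WT libraries, or 4 of 11 (12.0% of all rows), and 0 of 11 lay above (24.0% of all rows). ENSMUSG00000025453, also the row with the unadjusted p under 0.05, met the footprint filter only through the WT group. The median log2 TE difference of the members was -0.23, beside 0.15 over all rows. Leaving out KO replicate 1 gave 0.028 for the members and 0.33 for all rows. Leaving out KO replicate 2 gave -0.62 for the members and -0.033 for all rows. The size and the sign of the members' median thus rested on which KO library was read. It lay below the median of all rows in both fits. A difference that did not pass is not shown to be absent: the SE of a single TE difference was 0.43 to 0.76 for these rows.

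**Figure D3:**
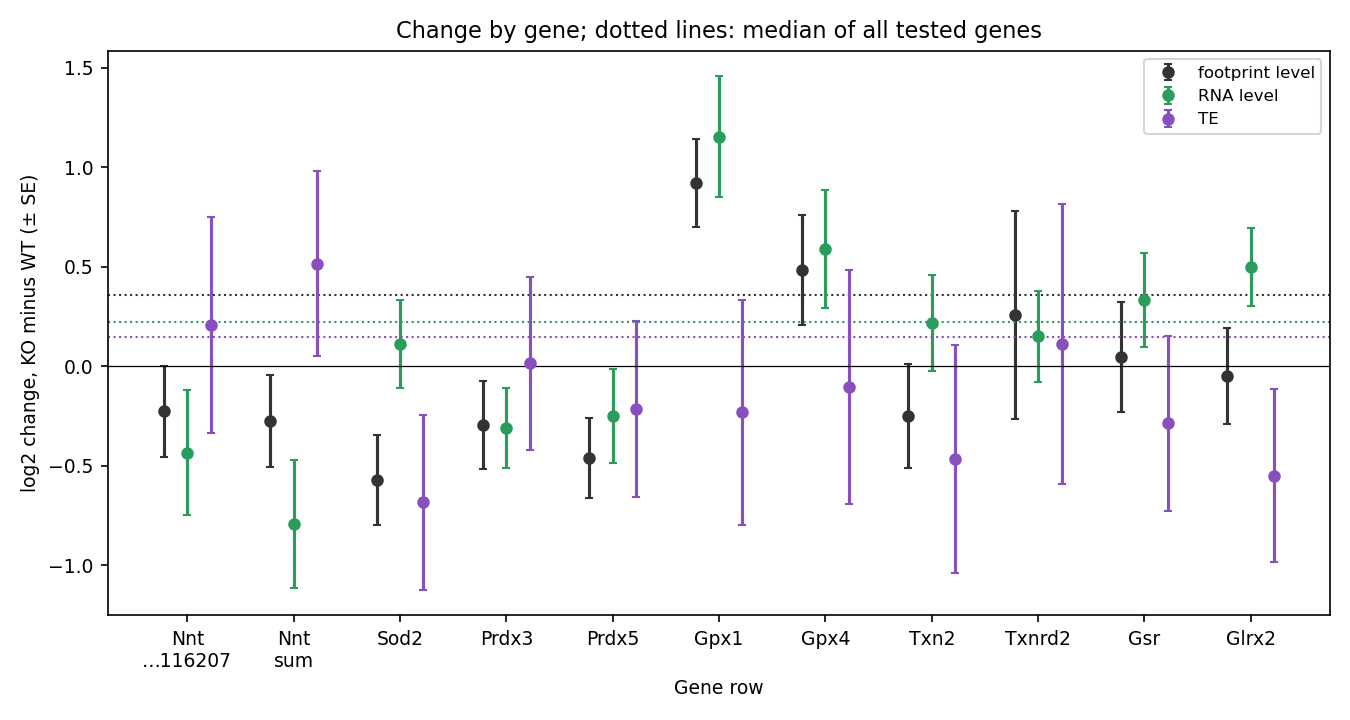
Log2 difference, KO minus WT, with its SE, of the footprint level, the implied RNA level and the TE of each member (ENSMUSG00000025453 of Nnt is left out, being far below the axis); dotted lines mark the median of all tested rows. Gpx1 stands highest in footprints and RNA, at 0.92 and 1.15, and Sod2 lowest in footprints among the rows shown, at -0.57, with RNA near 0.

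The levels of the members, compared per length in FPKM, spanned a wide range and kept much of their order. In WT the footprint order was Sod2, Prdx5, Nnt (ENSMUSG00000116207), Prdx3, Gpx4, Gpx1, Txn2, Glrx2, Gsr and Txnrd2. The values of Prdx5 and Nnt overlapped, as did those of Gpx1 and Txn2, and each other gene lay above the next in both libraries. In KO the order was the same except that Nnt stood before Prdx5. There Nnt, Prdx5, Prdx3 and Gpx4 each overlapped the next in line down to Gpx4, while Gpx1 stood above Txn2 in both libraries. Sod2 lay at the 99.2 percentile of tested rows by mean WT footprint level, Nnt at 97.8, Gpx4 at 96.01 and Txnrd2 at 68.3. RNA and TE ordered the genes differently. Gpx4 had an RNA level close to that of Sod2, at 225 ± 0.98 against 230 ± 2.2 FPKM in the WT group (SD, n = 2), and a TE of 2.36 ± 0.74 against 15.1 ± 2.2. By TE in the WT group, Sod2 lay at the 94.4 percentile of tested rows, Gsr at 83.2, Prdx3 at 75.7, Gpx1 at 35.02, Gpx4 at 31.0 and Txn2 at 19.2.

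Ratios between genes of a library do not depend on how the libraries are scaled. The footprint level of Gpx1 was 5.30% and 4.21% of that of Sod2 in the WT group and 13.2% and 13.4% in the KO group, or 4.76 ± 0.78% against 13.3 ± 0.15% (SD, n = 2). In implied RNA it was 25.5% and 28.3% in the WT group and 66.8% and 45.8% in the KO group. Gpx4 stood to Sod2 at 13.3% and 17.0% in the WT group and 31.2% and 31.2% in the KO group in footprints. Both glutathione peroxidases were therefore larger relative to Sod2 in both KO libraries, and in footprints the KO libraries agreed closely. Sod2 had the largest log2 footprint fall of the member rows besides ENSMUSG00000025453, so a gene that fell less rises against it. The Nnt sum, itself lower in the KO group, stood to Sod2 at 34.0% and 29.0% in WT and 35.1% and 42.2% in KO in footprints. In implied RNA the Nnt sum was smaller relative to Sod2 in both KO libraries. An exact permutation test of such a ratio cannot give a p below 0.333 with 2 libraries a group, so none is given. As a share of the summed footprints of all 10 genes, Sod2 made up 43.9% and 46.4% in the WT group and 38.3% and 36.8% in the KO group, and Gpx1 2.33% and 1.95% in the WT group and 5.05% and 4.94% in the KO group.

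The members were also set against the marker levels. The summed footprints of the 10 genes were 7136 and 8214 FPKM in the WT group and 5803 and 6611 in the KO group. They made up 2.44% and 2.38% of the sum of the cardiomyocyte markers in the WT group and 3.23% and 3.45% in the KO group. Against the sum of these markers Sod2 also read higher in the KO group, at 1.07% and 1.10% in the WT group and 1.23% and 1.27% in the KO group, although its own FPKM was lower there. That sum is weighted to the most abundant markers, with Actc1 alone at 132102 and 171574 FPKM in the WT group. Taken singly, Tnni3, Tnnt2 and Pln had smaller log2 falls (-0.27, -0.47 and -0.51) than Sod2 (-0.57), and the other markers had larger ones. Against 21 general mitochondrial genes the 10 members summed to 9.55% and 10.8% in the WT group and 12.5% and 11.8% in the KO group. The summed level of the members was thus lower in the KO group in FPKM, but larger in both KO libraries relative to the summed level of either set of genes. The mitochondrial sum is weighted to abundant genes too, with Atp5a1 alone at 18577 and 20651 FPKM in the WT group. Taken singly, Sod2 (-0.57) and Prdx5 (-0.46) fell more than the median of the mitochondrial list (-0.38). The other member rows, ENSMUSG00000025453 aside, fell less or rose.

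The other genes of the pathway were read from 5 lists. Of 22 general mitochondrial genes (porins, import, chaperones and respiratory subunits) 0 passed limma's test for footprints in either direction (0.379% of all rows). In both KO libraries 14 lay below WT (12.1% of all rows) and 1 above (39.5%), and their median log2 difference was -0.38. The largest differences were those of Ndufs1, a complex I subunit, at 2279 and 2845 FPKM in the WT group against 1300.0 and 844 in the KO group (adjusted p = 0.158), and of Atp5a1, an ATP synthase subunit, at 18577 and 20651 in the WT group against 10210.1 and 11555 in the KO group (adjusted p = 0.226). The list ran from -1.28 (Ndufs1) to 0.52 (Tomm20, an import receptor, named after its value was seen), and all member rows except Gpx1 and ENSMUSG00000025453 lay within that range.

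Of 10 genes listed for mitochondrial NADPH supply, 0 passed for footprints (0.379% of all rows). The list includes folate enzymes and a NAD kinase, and not all of its genes make NADPH themselves. What the differences of these genes mean for NADPH was not tested. In both KO libraries 3 lay above WT (39.5% of all rows) and 4 below (12.1%), and the median was 0.22. In the implied RNA level 3 rose (4.20% of all rows were called higher) and 2 fell (1.53% were called lower). Those that rose were Mthfd2 and Mthfd1l, enzymes of the mitochondrial folate cycle, and the malic enzyme Me2, at 3.34-, 3.79- and 2.43-fold (limma adjusted p = 0.0363, 0.0477 and 0.0485). Nadk2, the mitochondrial NAD kinase, fell from 20.9 and 18.9 FPKM of RNA in the WT group to 7.94 and 10.4 in the KO group (adjusted p = 0.0463), and Aldh1l2, a folate enzyme that yields NADPH, fell 4.09-fold (adjusted p = 0.0493). The footprints of Nadk2 read 182 and 179 in the WT group and 88.0 and 86.4 in the KO group, and those of Aldh1l2 17.8 and 23.1 in the WT group and 5.42 and 5.33 in the KO group, without passing (adjusted p = 0.160 and 0.186). Those of Mthfd1l read 10.9 and 6.65 in the WT group and 26.9 and 46.1 in the KO group (adjusted p = 0.182). The genes of this list thus divided in RNA, while its most abundant member, the isocitrate dehydrogenase Idh2, read 4229 and 4555 FPKM of footprints in the WT group and 2942 and 3259 in the KO group (adjusted p = 0.306).

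Of 28 genes of cytosolic and other redox defence, 0 passed for footprints (0.379% of all rows). In both KO libraries 14 lay above WT (39.5% of all rows) and 3 below (12.1%), and the median of 0.34 was close to that of all rows. For RNA, 4.20% of all rows were called higher and 1.53% lower. In RNA 4 rose: Hmox1, the heme oxygenase, 2.92-fold, Gpx3, the secreted glutathione peroxidase, 3.37-fold, Sesn2, a stress-induced sestrin, 4.23-fold, and Glrx3, a cytosolic glutaredoxin, 2.90-fold (limma adjusted p = 0.0443, 0.0306, 0.0218 and 0.0267). Msrb2, a mitochondrial methionine sulfoxide reductase, and the sestrin Sesn1 fell 2.15-fold and 2.16-fold (adjusted p = 0.0431 and 0.0442). The largest footprint differences were those of Sesn2, at 5.01 and 7.40 FPKM in the WT group and 19.5 and 44.1 in the KO group, and of Sod3, the extracellular superoxide dismutase, at 51.4 and 67.8 in the WT group and 179 and 308 in the KO group (adjusted p = 0.186 and 0.121). Sod3 and Sod2 thus read in opposite directions.

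The selenoproteins among the members were read beside their kin. Of 16 other selenoprotein genes, 0 passed for footprints (0.379% of all rows). In both KO libraries 9 lay above WT (39.5% of all rows) and 1 below (12.1%), and the median was 0.44. In RNA Gpx3 rose, as given above, and 0 fell. Gpx3 read 37.7 and 34.3 FPKM of footprints in the WT group and 90.5 and 204 in the KO group (limma adjusted p = 0.162), and Selenon, a selenoprotein of the sarcoplasmic reticulum, 35.4 and 35.3 in the WT group and 87.5 and 60.4 in the KO group (adjusted p = 0.233). Of 9 genes that make selenocysteine or insert it, 0 passed for footprints or RNA (0.379% and 5.73% of all rows). In both KO libraries 1 lay above WT in footprints (39.5% of all rows) and 0 below (12.1%), and the median was 0.20. The widest differences there were those of Sepsecs, the selenocysteine synthase, at 27.8 and 26.8 in the WT group and 28.6 and 51.04 in the KO group (adjusted p = 0.566), and of the kinase Pstk, at 28.3 and 68.2 in the WT group and 22.2 and 42.9 in the KO group (adjusted p = 0.664). In TE 0 rows of any of the 5 lists passed. Most rows of each list lay below the TE median of all rows. These were 20 of 21 general mitochondrial genes, 8 of 10 for NADPH supply and 19 of 28 of cytosolic and other redox defence. They were also 11 of 16 other selenoproteins and 6 of 9 for selenocysteine. Of the 21 general mitochondrial genes, 7 had both KO libraries under WT in TE (12.0% of all rows) and 0 above (24.0%). The 15 RNA calls on list and marker genes depended on the fit: without the trend in eBayes only Sesn2 was still called, and the adjusted p of the 15 ran from 0.0475 to 0.0919. With median-ratio scaling 12 of 15 were still called, all but Me2, Mthfd1l and C1qa. Msrb2, Sesn1, Nadk2, Me2, Mthfd1l and C1qa were not called without WT replicate 1, nor Msrb2, Sesn1, Nadk2, Me2 and C1qa without WT replicate 2, nor Hmox1, Mthfd2, Me2 and Mthfd1l with KO replicate 1 removed.

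**Figure D4:**
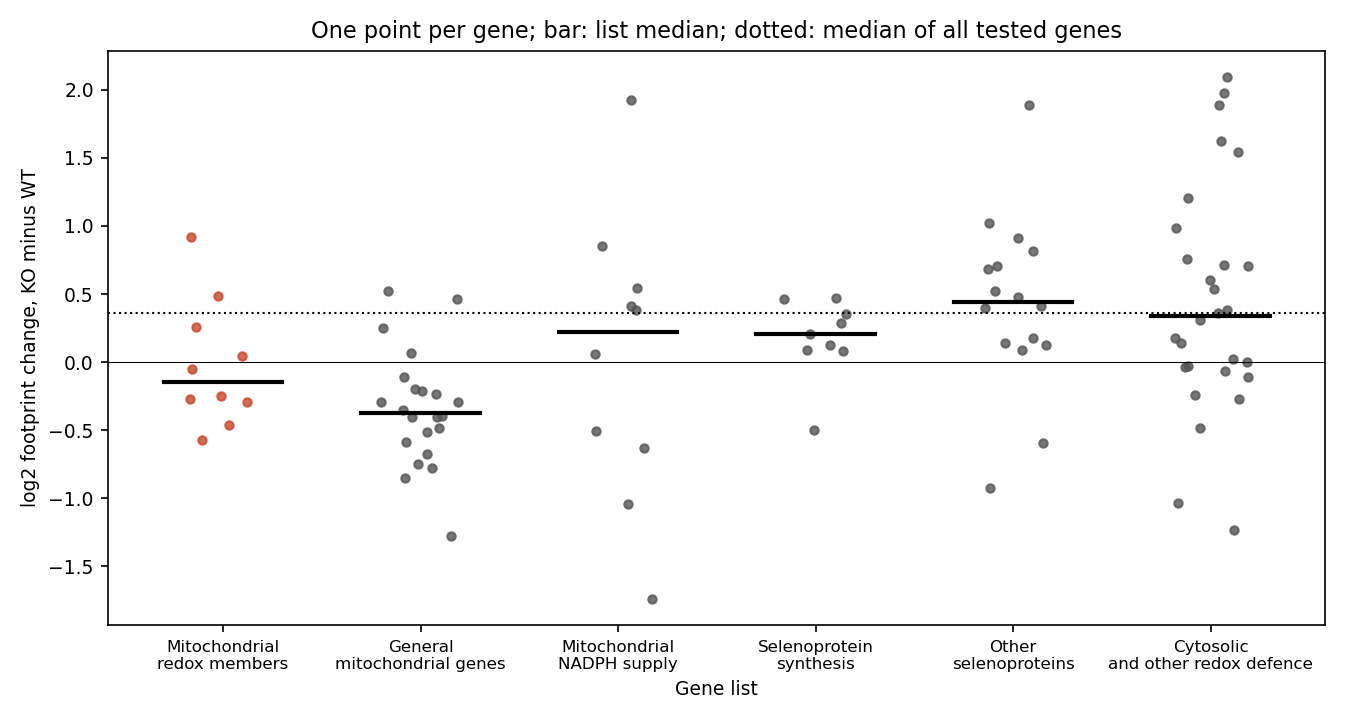
Log2 footprint difference, KO minus WT, of each gene in the members' list (10 points, Nnt as the sum of its rows) and in 5 lists of related genes; the bar is the list median and the dotted line the median of all tested rows. The general mitochondrial list has a median of -0.38, the members -0.15, and the cytosolic redox and other selenoprotein lists 0.34 and 0.44.

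The rows most like each Nnt row were sought among 9281 named rows of at least 10 FPKM, by the distance between log2 footprint levels centred on each row's mean over the 4 libraries. For ENSMUSG00000025453 the nearest were Zswim9, Art1, a muscle ADP-ribosyltransferase, and Asb15, a muscle ubiquitin ligase adaptor, at distances of 1.78, 2.37 and 2.50. Zswim9 read 20.1 and 46.6 FPKM in the WT group and 2.85 and 1.47 in the KO group, so even the nearest row kept more footprints in the KO group. Asb15 fell from 161 and 201 FPKM in the WT group to 24.2 and 31.4 in the KO group (limma adjusted p = 0.0407). Its adjusted p was 0.0730 with a pseudocount of 0.1, 0.143 without a filter and 0.158 without the trend, and it was not called with any 1 library left out (0.299 to 0.666). Zswim9 and Art1 did not pass (adjusted p = 0.124 and 0.0957). These 3 rows were picked for their likeness to ENSMUSG00000025453 over the same 4 libraries. Their lower KO values thus follow from the choice, and their p-values are a description only. For ENSMUSG00000116207 the nearest rows included Fech and Pelp1, at distances of 0.032 and 0.042. Among the 15 symbols that stand on several rows and sum to at least 10 FPKM in every library, Nnt and Ddit3 had a row past the footprint test.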

How the data were processed

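The build was GRCm38 (mm10), per the submitters' processing notes. These list, with no role, STAR (version 2.7.4a), Bowtie (1.3.1), Cufflinks (2.2.1), HTSeq (0.13.5), FastQC (0.11.9) and cutadapt (3.7). Order, settings, strand choices and the making of the RNA libraries are not given in those sources. Footprints came from lysates with cycloheximide, per the labels' protocols. The authors deposited footprint levels in FPKM and, in a second table, TE as a ratio. The quotient of both lay within a relative tolerance of 1e-10 of its value rounded to 6 significant digits in 59296 of 59296 cases and was used as the implied RNA level. A TE of 0 was taken as missing. Levels were compared as log2(FPKM + 1), and TE and RNA as log2, with limma 3.58.1 (lmFit, eBayes with trend; R 4.3.3; two-sided; no covariates). P-values were adjusted by Benjamini-Hochberg over all rows tested and called at 0.05. Only the limma fit was tried on simulated log2 footprint levels, with planted changes much larger than most differences given here. The quotient, the Nnt sum and the scaling were not tried in this way. For the Nnt sum its rows were replaced by their sum before the fit. Gene positions come from RefSeq (GRCm38.p6), matched by symbol. The replicates are not said to be separate animals, so a p-value here reflects the spread among these libraries, which may be technical.

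The members and lists were chosen with earlier results of these data known. Named were all members, list genes past a test in any measure, the 2 of each list with the largest footprint difference, and the 3 rows nearest to each Nnt row, of which 1 is not reported here. Exceptions chosen after their values were seen are Idh2, Tomm20, Ddit3 and the markers past a test; Nat10 is the check of the deletion. Alternatives were another pseudocount, other filters, median-ratio scaling, no trend, a replicate block and leaving out each library.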

Additional observations from a re-analysis of the deposited data

How the results depend on the processing

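The footprint call on 1 member row was lost (0 rows called) with a pseudocount of 0.1 or 10, without a filter, with a floor of 10 FPKM and without the trend, and with any library left out (0 to 0). The log2 difference of that row was -8.17 and -2.13 with those pseudocounts. For RNA, where 0 member rows were called, 0 to 3 were called with a library left out, and for TE, also 0, 0 to 1. TE called 1 member row (ENSMUSG00000025453) without small RNA genes, pseudogenes and unnamed models, and 1 without the trend.

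The replicate numbers were not shown to pair the libraries: deviations of same-numbered libraries correlated across genes at r = -0.056 for footprints, -0.22 for RNA and -0.018 for TE. With a replicate block 1 member row was called for footprints, 2 for RNA (Gpx1 and ENSMUSG00000025453) and 1 for TE, and all called rows went from 57 to 143, from 718 to 1429 and from 0 to 178. A crossed pairing, added after seeing the data, gave 2 member rows and 3241 rows in all for RNA.

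Footprint calls over all rows were 34 with the lower pseudocount, 8 without a filter, 36 without the trend and 220 without small RNA genes and unnamed models. RNA calls were 67 without the trend and 704 to 3742 with a library left out. TE calls were 1 without the trend, 1 without small RNA genes and unnamed models, and 0 to 33 with a library left out.

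With median-ratio scaling the log2 difference changed sign for footprints of Txnrd2 (-0.11) and Gsr (-0.32), RNA of Sod2 (-0.11), Txn2 (-0.0019) and Txnrd2 (-0.067), and TE of Prdx3 (-0.13) and Txnrd2 (-0.034). With a library left out, signs changed within these ranges: footprints of Txnrd2 (-0.28 to 0.80), Gsr (-0.058 to 0.15), Pstk (-1.12 to 0.12) and Pelp1 (-0.40 to 0.022); RNA of ENSMUSG00000116207 (-0.89 to 0.018), Sod2 (-0.037 to 0.26), Txn2 (-0.047 to 0.48) and Txnrd2 (-0.036 to 0.34); and TE of ENSMUSG00000116207 (-0.24 to 0.65), Prdx3 (-0.23 to 0.26), Prdx5 (-0.45 to 0.028), Gpx1 (-0.73 to 0.27), Gpx4 (-0.56 to 0.35) and Txnrd2 (-0.63 to 0.85). The cause was not tested. The Nnt sum kept its direction and stayed short of the threshold in every alternative run. Depth in reads is unknown, so no counting error can be given.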
